A study of Mus musculus with 8 samples.

Results

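Immediate early and stress response genes were followed in mouse embryos at E9.5, in their posterior second heart field (pSHF). The pSHF is the mesenchyme behind the heart that supplies cells to the atrial septum. The 10 genes Fos, Fosb, Jun, Junb, Egr1, Ier2, Atf3, Dusp1, Btg2 and Hspa1b were taken by their names on the array, with every probe of each. They had 15 probes and 33 spots on each array, out of 27827 gene names, 41174 probes and 43379 spots other than controls. Fos and Jun had 1 probe each, spotted 10 times. Each of 4 Tbx5-/+ samples (heterozygous for a Tbx5 mutation) and 4 wild-type samples (Tbx5 WT) was hybridized to 1 single-colour Agilent whole mouse genome array. All embryos came from a mixed background and from females superovulated with 2 gonadotropins (of pregnant mare serum and human chorionic) before mating. The tissue carried the attached foregut but not the heart or neural tube, and was cut free in cold saline. Each sample was a separate pool of RNA per the series' design, and the number of embryos in a pool was not given in the labels. Samples of both groups were numbered 1, 5, 6 and 7, and values below follow that order. The mutation was carried by the whole embryo and not by the pSHF alone.

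Immediate early genes are transcribed within minutes of a stimulus, because their promoters are already occupied by serum response factor, its partners and CREB, which are switched on by MAP kinases. Many encode transcription factors, such as the Fos and Jun proteins that pair to form AP-1, while others, such as the phosphatase Dusp1, switch the kinases off again. Enzymes, cutting and warming of tissue can all induce them, as heat or unfolded protein induces Hspa1b, so they are often read as a sign of how a sample was handled. The comparison asks whether these genes differed between the Tbx5-/+ and wild-type dissections.

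None of the 10 genes passed the test across all probes. Of the 15 probes, 10 probes of 8 genes exceeded background clearly on each array of at least 1 group and were tested, and 0 passed an adjusted p of 0.05 (limma, Benjamini-Hochberg over 20028 probes). That background was 0% of all probes tested, and 1 member probe, for Dusp1, had an unadjusted p under 0.05 (lower in Tbx5-/+), against 18.5% of all probes lower and 3.38% higher at the same threshold. The differences (Tbx5-/+ minus wild-type, log2) were below 0 for 9 probes and above 0 for 1, while 65.4% of all probes tested were below 0. Their median was -0.42, and the median of all probes tested was -0.19. The Hspa1b probe tested passed the filter through the wild-type group alone. Among the 9 member probes well above background on all 8 arrays, 8 were below 0 and 1 above. Their median was -0.37, beside -0.15 for all probes with that filter. Fos and Fosb were not tested, because neither exceeded background clearly on every array of a group. In bulk tissue, fewer cells of a type and less RNA per cell cannot be told apart.

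**Figure D1:**
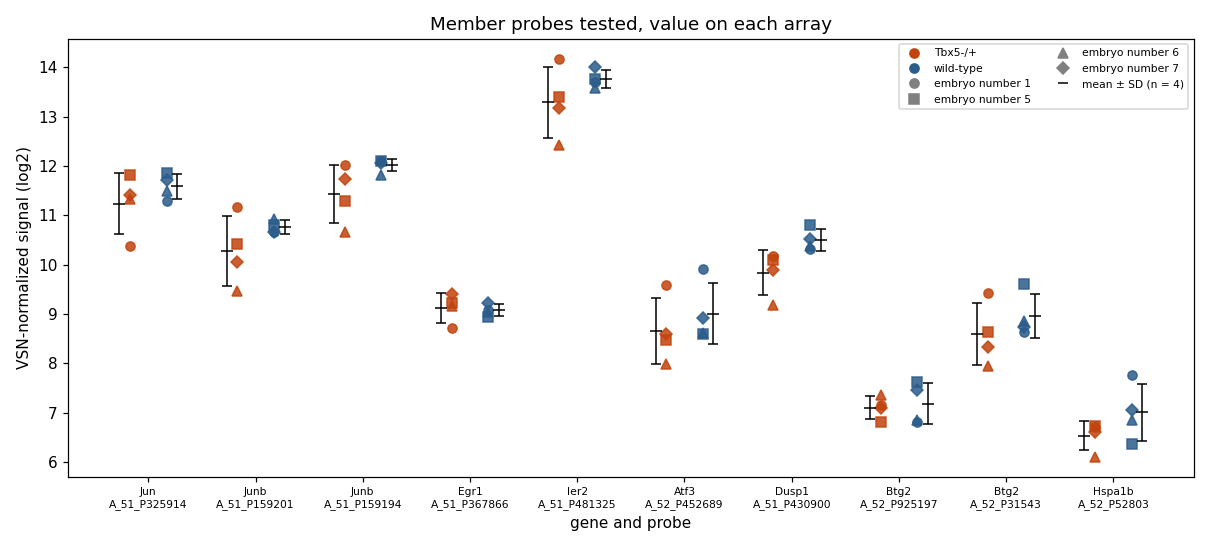
VSN-normalized signal (log2, vertical axis) of each tested member probe (horizontal axis) on each array, with colour for the group, marker shape for the embryo number and bars for mean ± SD (n = 4). Dusp1 is the probe whose groups do not overlap, and Tbx5-/+ 6 (orange triangles) is the lowest array for 7 of the 10 probes.

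The arrays differed as a whole in ways that touch these values. Between 45.0% and 52.8% of spots were well above background on the Tbx5-/+ arrays and between 50.9% and 63.6% on the wild-type arrays. The gap between a probe near the 3′ end and one at least 500 bases further 5′ in the same transcript had a median over 2476 transcripts of 1.74, 2.18, 2.39 and 2.35 (log2) on the Tbx5-/+ arrays and 1.71, 1.92, 2.01 and 1.89 on the wild-type arrays. Tbx5-/+ 1 was thus closer to wild-type than to the other Tbx5-/+ arrays in this respect. Array correlations over tested probes reached down to 0.901 within Tbx5-/+ and 0.961 within wild-type. The Tbx5 probe A_52_P523712 measured 9.01, 9.73, 9.16 and 8.62 in Tbx5-/+ and 11.47, 11.56, 10.42 and 11.54 in wild-type, and did not overlap between the groups. Its difference was -2.12 (SE 0.32, adjusted p = 0.0921 by limma). The limma adjusted p was 0.0118 without Tbx5-/+ 1 and 0.0336 with the embryo number as a block. The other Tbx5 probe, A_51_P469338, differed by -0.15.

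Promoter sequence was available in RefSeq (GRCm38.p6) for 8 of the 10 genes, and was not found for Egr1 and Ier2. The 250 bases before the gene start of Dusp1, Btg2 and Fos are shown because the first 2 hold the full cAMP response element, the site that CREB binds, and Fos holds its half-sites and a TATA box. Capitals mark TGACGTCA in Dusp1 and Btg2 and TGACG and TATAAA in Fos, on either strand.
Dusp1 (chr17:26508473-26508722, minus strand): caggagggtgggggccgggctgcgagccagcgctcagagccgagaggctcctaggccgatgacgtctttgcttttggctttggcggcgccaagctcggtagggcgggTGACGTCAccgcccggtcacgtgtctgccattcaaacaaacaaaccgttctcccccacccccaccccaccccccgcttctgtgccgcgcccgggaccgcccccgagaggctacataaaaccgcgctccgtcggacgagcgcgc
Btg2 (chr1:134079156-134079405, minus strand): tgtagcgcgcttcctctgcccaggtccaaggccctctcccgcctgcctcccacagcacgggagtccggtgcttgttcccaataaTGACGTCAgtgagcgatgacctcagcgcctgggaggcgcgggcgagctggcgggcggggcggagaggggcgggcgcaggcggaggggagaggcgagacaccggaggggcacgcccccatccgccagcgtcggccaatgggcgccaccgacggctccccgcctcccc
Fos (chr12:85473640-85473889, plus strand): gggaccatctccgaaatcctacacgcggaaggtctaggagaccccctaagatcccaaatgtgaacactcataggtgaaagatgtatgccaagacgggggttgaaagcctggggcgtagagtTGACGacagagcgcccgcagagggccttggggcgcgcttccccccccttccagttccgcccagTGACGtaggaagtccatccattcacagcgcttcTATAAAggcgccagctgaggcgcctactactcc

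The full element TGACGTCA began 143 bases before the start of Dusp1 and 166 bases before that of Btg2, and was found in 2 of the 8 promoters and in 1.55% of the 32851 promoter windows of all genes. The half-site TGACG, which the full element contains on both strands, was found in 6 of the 8 (Atf3, Btg2, Dusp1, Fos, Fosb and Junb) and in 17.8% of all promoters. Fos held it 129 and 66 bases before its start, and its TATAAA, 33 bases before, was found in no other member and in 12.4% of all promoters. CCAAT was found in 4 (Btg2, Hspa1b, Jun and Junb) and in 33.8% of all promoters. No window of a member held the AP-1 letters TGANTCA (6.75% of all), the heat shock element (GAA, TTC and GAA, each 2 bases apart; 0.466%) or the CArG box of serum response factor (1.47%). These letters are a description of a 250-base window on either strand and say nothing of binding.

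Dusp1 encodes a nuclear phosphatase that removes phosphate from MAP kinases and is itself an immediate early gene. Its probe A_51_P430900 measured 10.18, 10.10, 9.19 and 9.89 (log2) in Tbx5-/+ and 10.31, 10.80, 10.37 and 10.53 in wild-type. Every Tbx5-/+ array was below every wild-type array, with Tbx5-/+ 6 furthest down; 8.98% of all probes tested were lower without overlap in the same way and 0.744% were higher. The means were 9.84 ± 0.45 and 10.501 ± 0.22 (SD, n = 4 each), a difference of -0.66 (SE 0.25; 95% confidence interval -1.22 to -0.10), with an adjusted p of 0.199 by limma. The exact permutation p was 0.0286, which is the lowest value possible with 70 assignments. The difference was -0.41 within array label 1 (numbers 1 and 5) and -0.91 within array label 2 (numbers 6 and 7). Set against each array's own median, the groups overlapped, and the difference was -0.34 (exact permutation p = 0.143).

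Junb encodes an AP-1 subunit and was measured by a pair of overlapping probes on chromosome 8 (mm9). Probe A_51_P159194 (chr8:87500843-87500902) measured 12.02, 11.30, 10.67 and 11.75 in Tbx5-/+ and 12.10, 12.10, 11.83 and 12.06 in wild-type. The Tbx5-/+ arrays reached further down and overlapped the wild-type arrays through Tbx5-/+ 1 alone. The difference was -0.59 (SE 0.28; 95% confidence interval -1.22 to 0.04; limma adjusted p = 0.246; exact permutation p = 0.0571), with -0.44 within array label 1 and -0.73 within array label 2. Probe A_51_P159201 (chr8:87500881-87500940) measured 11.18, 10.41, 9.46 and 10.06 in Tbx5-/+ and 10.66, 10.81, 10.93 and 10.66 in wild-type. Here Tbx5-/+ 1 was the highest of all 8 arrays and the other Tbx5-/+ arrays were below every wild-type array. The difference was -0.49 (SE 0.32; limma adjusted p = 0.365), and lay at 0.06 within array label 1 and -1.04 within array label 2.

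Ier2, a nuclear protein induced by growth factors, also had its highest value on Tbx5-/+ 1. Probe A_51_P481325 measured 14.17, 13.40, 12.42 and 13.18 in Tbx5-/+ and 13.70, 13.76, 13.59 and 14.00 in wild-type. The other 3 Tbx5-/+ arrays were below every wild-type array. The difference was -0.47 (SE 0.33; limma adjusted p = 0.387; exact permutation p = 0.286), with 0.06 within array label 1 and -0.997 within array label 2. A further probe named Ier2, A_52_P554555, lists another transcript and was well above background on 2 wild-type arrays and on no Tbx5-/+ array, so no fold is given.

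With Tbx5-/+ 1 left out, these genes came closest to the threshold. The probe A_51_P159201 of Junb then passed (difference -0.79; limma adjusted p = 0.0487), and the others were just above it, with adjusted p = 0.0578 for the second Junb probe, 0.0601 for Ier2 and 0.0563 for Dusp1. Member probes with an unadjusted p under 0.05 numbered 5, all lower, where 27.2% of all probes were lower at that threshold and 19.2% of all probes passed the adjusted p. With Tbx5-/+ 6 left out instead, the differences were -0.18 for Ier2, -0.33 and -0.22 for the Junb probes and -0.44 for Dusp1. With each array weighted by its fit to its group, 4 probes of 3 genes (Junb, Ier2 and Dusp1) passed, where 50% of all probes passed. With the embryo number as a block, the members called remained at 0, where 11.1% of all probes passed. Member probes with an unadjusted p under 0.05 then numbered 2, where 29.6% of all probes were lower. They were Dusp1 (limma adjusted p = 0.0742) and Junb A_51_P159194 (limma adjusted p = 0.106).

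**Figure D2:**
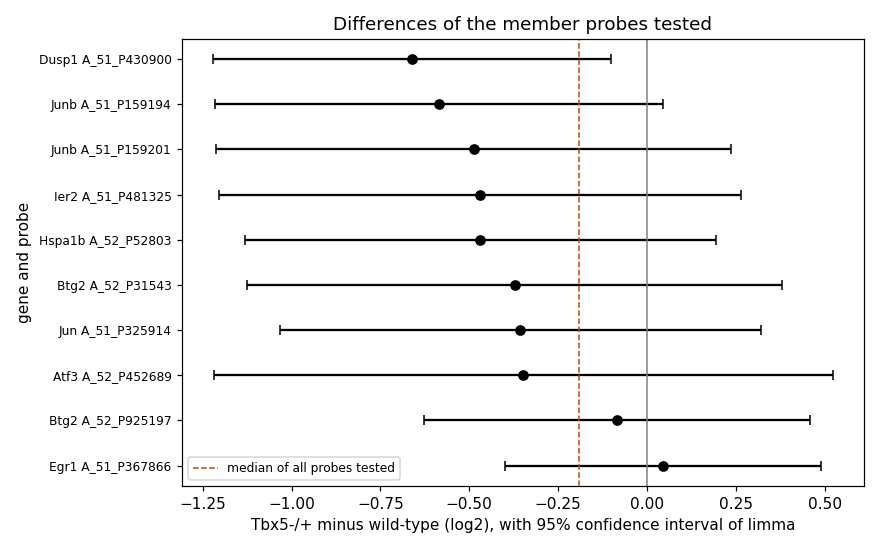
Difference between Tbx5-/+ and wild-type means (log2, horizontal axis) of each tested member probe (vertical axis), with the 95% confidence interval from limma (4 arrays a group). Only the interval of Dusp1 lies wholly below 0, and 8 of the 10 points lie left of the dashed line, the median of all probes tested at -0.19.

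Jun, the main partner of Fos in AP-1, was bright on every array. Probe A_51_P325914 (chr4:94715864-94715923, mm9) measured 10.37, 11.83, 11.33 and 11.41 in Tbx5-/+ and 11.28, 11.86, 11.50 and 11.71 in wild-type. Tbx5-/+ 1 was the lowest array here, where it had been the highest for Ier2 and for 1 of the Junb probes, and the groups overlapped. The difference was -0.36 (SE 0.30; limma adjusted p = 0.475), and -0.48 and -0.24 within array labels 1 and 2. Without Tbx5-/+ 1 it was -0.07. Its repeated spots had an SD of 0.019 to 0.0822 on one array, below the SD between arrays of 0.62 in Tbx5-/+ and 0.25 in wild-type, and all 77 spots kept were above background.

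Fos, the prototype immediate early gene, was near background. Its probe A_52_P262219 (chr12:86817900-86817959, mm9) was well above background on wild-type 5 and 7, with 10 of 10 spots on each, on 1 of 10 spots of wild-type 1, and on 0 spots of wild-type 6 and of every Tbx5-/+ array. Wild-type 5 and 7 were also the arrays with the largest shares of all spots well above background (60.9% and 63.6%). The values were 6.16, 5.87, 6.38 and 6.09 in Tbx5-/+ and 5.90, 5.89, 6.07 and 5.88 in wild-type, and values this low have no order. No fold is given, since the wild-type mean of 5.94 was under the floor of 6.23 on the Tbx5-/+ arrays, the mean over arrays of the higher of the dimmest level well above background and the probe's own. Between spots of one array the SD was 0.0947 to 0.591.

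**Figure D3:**
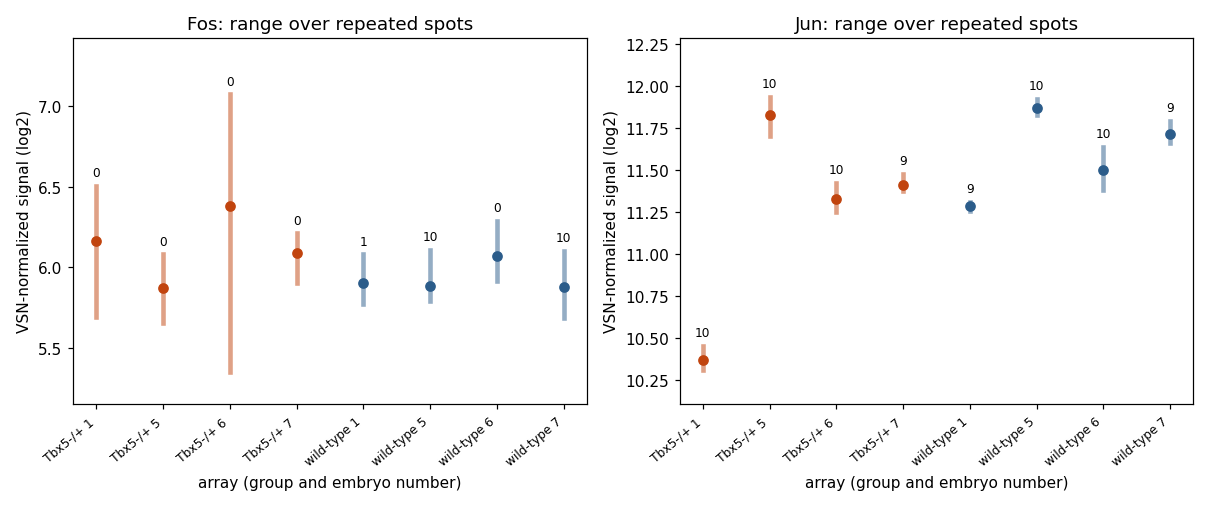
Signal (VSN log2, vertical axis) of the repeated spots of the Fos and Jun probes on each array (horizontal axis, orange for Tbx5-/+ and blue for wild-type). Bars span the lowest to the highest spot, dots are the array's value and the number over each bar counts the spots well above background, which for Fos is 10 on wild-type 5 and 7 and 0 on all Tbx5-/+ arrays. Wild-type 5 and 7 also had the largest shares of all spots well above background.

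Fosb, a Fos relative with the same partners, was well above background on Tbx5-/+ 5, 6 and 7 and on wild-type 1, 5 and 7. Probe A_51_P138378 (chr7:19888477-19888536, mm9) measured 6.39, 7.83, 7.14 and 6.59 in Tbx5-/+ and 6.34, 6.17, 6.53 and 6.08 in wild-type. Tbx5-/+ 5 stood highest and the groups overlapped through Tbx5-/+ 1. Without the filter on dim probes the difference was 0.71 (SE 0.32; limma unadjusted p = 0.0503, adjusted p = 0.417; exact permutation p = 0.0571), and 3.18% of all probes were higher at an unadjusted p under 0.05. Set against each array's own median, every Tbx5-/+ array was above every wild-type array (difference 1.03), as held for 10.2% of all probes without the filter. The same centring gave the other untested, dim member probes 0.51 (Fos), 0.65 (Hspa1b A_52_P304902), 0.398 (Btg2 A_52_P35217) and -0.05 (Ier2 A_52_P554555). No conclusion on Fosb is therefore drawn from the centred values. In processed signal, without scaling between arrays, only Tbx5-/+ 5 (148.7) exceeded the highest wild-type array (68.7). Tbx5-/+ 1, 6 and 7 measured 41.8, 50.4 and 42.3 there.

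Egr1, a zinc finger factor that serum response factor induces, was the tested member above 0. Probe A_51_P367866 measured 8.71, 9.22, 9.16 and 9.41 in Tbx5-/+ and 9.09, 8.95, 9.04 and 9.23 in wild-type. Tbx5-/+ 1 was the lowest and Tbx5-/+ 7 the highest of all arrays. The difference was 0.04 (SE 0.20; 95% confidence interval -0.40 to 0.49; limma adjusted p = 0.905), and -0.06 and 0.14 within array labels 1 and 2. Without Tbx5-/+ 7 it was -0.05. With other scalings it was 0.39 (75th percentile), 0.37 (quantile) and 0.37 (median centring), none of which passed.

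Atf3, a factor of the integrated stress response, varied among arrays of both groups. Probe A_52_P452689 (chr1:192994547-192994606, mm9) measured 9.59, 8.47, 7.98 and 8.60 in Tbx5-/+ and 9.91, 8.59, 8.62 and 8.92 in wild-type. Number 1 was the highest sample in both groups, and Tbx5-/+ was below wild-type at every number, by 0.12 to 0.64 on the log2 scale. The same held at every number for Jun, Dusp1 and Junb A_51_P159194, and 65.4% of all probes tested had a difference below 0. The difference was -0.35 (SE 0.39; limma adjusted p = 0.593), and -0.22 and -0.47 within array labels 1 and 2. Leaving out wild-type 1 gave -0.05, Tbx5-/+ 6 gave -0.12 and Tbx5-/+ 1 gave -0.66. With the embryo number as a block the adjusted p was 0.190 by limma.

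Btg2, an antiproliferative gene that p53 and growth factors induce, had 3 probes along 1 transcript on chromosome 1. They lay at bases 284, 549 and 2371 of the transcript, and the most 5′ is shown because it was the one not tested.
Btg2 probe A_52_P35217 (chr1:135974181-135974240, mm9, minus strand): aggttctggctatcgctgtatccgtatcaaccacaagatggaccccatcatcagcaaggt

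This probe was well above background on 2 wild-type arrays and on no Tbx5-/+ array, and was not tested. The probe at base 549 measured 7.15, 6.80, 7.37 and 7.09 in Tbx5-/+ and 6.80, 7.62, 6.86 and 7.47 in wild-type, a difference of -0.08 (SE 0.24; limma adjusted p = 0.847). The probe at base 2371 measured 9.43, 8.64, 7.96 and 8.33 in Tbx5-/+ and 8.64, 9.61, 8.86 and 8.74 in wild-type, a difference of -0.37 (SE 0.34; limma adjusted p = 0.503). The groups overlapped at both. Within array labels 1 and 2 the differences were -0.24 and 0.07 at base 549 and -0.09 and -0.66 at base 2371. The direction at base 549 changed with the scaling of the arrays, to 0.24 when each array was centred on its median. At base 2371 the difference was -0.65 without Tbx5-/+ 1 and -0.16 without either Tbx5-/+ 6 or wild-type 5.

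Hspa1b encodes an inducible Hsp70 chaperone whose coding sequence is nearly identical to that of the neighbouring Hspa1a. Both of its probes list transcripts of both genes, so these probes do not separate them. Their sequences, in lower case throughout, are shown for that reason.
Hspa1b probe A_52_P304902 (base 516, chr17:35095608-35095667, mm9, minus strand): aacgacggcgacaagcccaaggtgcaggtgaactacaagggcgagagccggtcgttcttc
Hspa1b probe A_52_P52803 (base 1924, chr17:35094200-35094259, mm9, minus strand): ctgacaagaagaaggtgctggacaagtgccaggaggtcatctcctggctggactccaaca

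The first of these was above background on 0 of 8 arrays. The second was above background on 2 of 4 Tbx5-/+ and 4 of 4 wild-type arrays and measured 6.71, 6.74, 6.11 and 6.60 against 7.76, 6.37, 6.86 and 7.05. Wild-type 1 stood highest and the groups overlapped. A_52_P52803 passed the filter through the wild-type group alone, where it was higher, so no conclusion is drawn from its test. The difference was -0.47 (SE 0.30, limma adjusted p = 0.343), and -0.34 and -0.60 within array labels 1 and 2. It was -0.84 with 75th percentile scaling, -0.15 with each array centred on its median and -0.22 without wild-type 1. Probes that list Hspa1a and not Hspa1b differed by 0.06 (A_52_P82741; SE 0.30) and -0.31 (A_51_P117952; SE 0.30), with limma adjusted p = 0.915 and 0.530.

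Among the fits with 1 array left out, the median over the members moved most with a pair of Tbx5-/+ arrays, while Hspa1b and Btg2 A_52_P925197 moved most with wild-type arrays. Scaling moved all of these further. The median went to -0.10 and Btg2 A_52_P925197 to 0.24 with centred arrays, and Hspa1b to -0.84 with 75th percentile scaling. Tbx5-/+ 6 was the lowest array for 7 of the 10 tested probes, against 38.2% of all probes tested, and without it the median difference of the members was -0.20. Without Tbx5-/+ 1 it was -0.65. The median of the tested member probes relative to the array's own median was 0.18, -0.17, -0.30 and -0.10 in Tbx5-/+ and 0.04, 0.16, -0.18 and -0.17 in wild-type, and these ranges overlapped. The 3′ to 5′ gap was 1.74 on Tbx5-/+ 1, where Junb, Ier2 and Atf3 were highest among the Tbx5-/+ arrays, and 2.39 on Tbx5-/+ 6, where they were lowest. Jun and Egr1 were instead lowest on Tbx5-/+ 1, and Btg2 A_52_P925197 was highest on Tbx5-/+ 6. With the gap as a covariate, an alternative chosen after seeing the data, no member passed. The differences were then 0.07 for Ier2, 0.02 for Junb A_51_P159201, 0.36 for Atf3, 0.06 for Btg2 A_52_P31543, -0.23 for Junb A_51_P159194, -0.44 for Dusp1, -0.17 for Hspa1b, and -0.16 for both Egr1 and Btg2 A_52_P925197. Jun was at -0.79 (limma adjusted p = 0.200) and was the member probe with an unadjusted p under 0.05, where 14.7% of all probes were lower at that threshold.

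The pattern over the 8 arrays was compared with that of every other gene tested, as a description. The 5 genes whose values ran closest to the mean of the standardized member probes were Myo5a (Pearson r = 0.9945), Amacr (0.9943), Mmp17 (0.9943), Exd2 (0.9933) and Pom121 (0.9931), over 8 arrays. Their differences were -0.38, -0.50, -1.07, -0.61 and -0.74. The points share their arrays and the whole-array shifts given above.

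Other genes of the same responses were counted from gene lists, each gene by its brightest probe tested. No gene of the 5 lists passed an adjusted p of 0.05 by limma in the main fit. With the embryo number as a block, 3 of 43 other immediate early, 3 of 24 upstream, 2 of 28 heat shock, 1 of 24 integrated stress and 0 of 16 hypoxia genes passed. The share of all probes was 11.1%. Without Tbx5-/+ 1 these counts were 6, 4, 6, 4 and 2, where 19.2% of all probes passed. At an unadjusted p under 0.05, 18.5% of all probes were lower and 3.38% higher, and once arrays were centred on their medians 6.64% were lower and 16.2% higher. Among 43 other immediate early and early response genes tested of 49, 7 were lower and 2 higher at an unadjusted p under 0.05, with a median difference of 0.00. With centred arrays 3 were lower and 9 higher. Klf4, a Krüppel-like factor, measured 9.77, 8.83, 7.37 and 8.64 in Tbx5-/+ and 10.29, 10.95, 10.27 and 11.09 in wild-type, without overlap. Its difference was -1.997 (SE 0.45; limma adjusted p = 0.0958, and 0.0336 with the embryo number as a block). The orphan nuclear receptor Nr4a2 measured 8.79, 7.54, 6.54 and 7.30 against 8.88, 9.45, 8.91 and 9.83, a difference of -1.72 (SE 0.44; limma adjusted p = 0.109, and 0.0388 with the block). For Csrnp1, a nuclear protein that responds to growth signals, the difference was -1.14 (limma adjusted p = 0.139, and 0.0368 with the block), without overlap, and -0.49 at its other probe. The 2 higher genes, Gadd45g (0.66) and Socs3 (0.65), are named after their values were seen. Egr3, Egr4, Fosl1, Nr4a3 and Zfp36l2 were not well above background on any array.

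**Figure D4:**
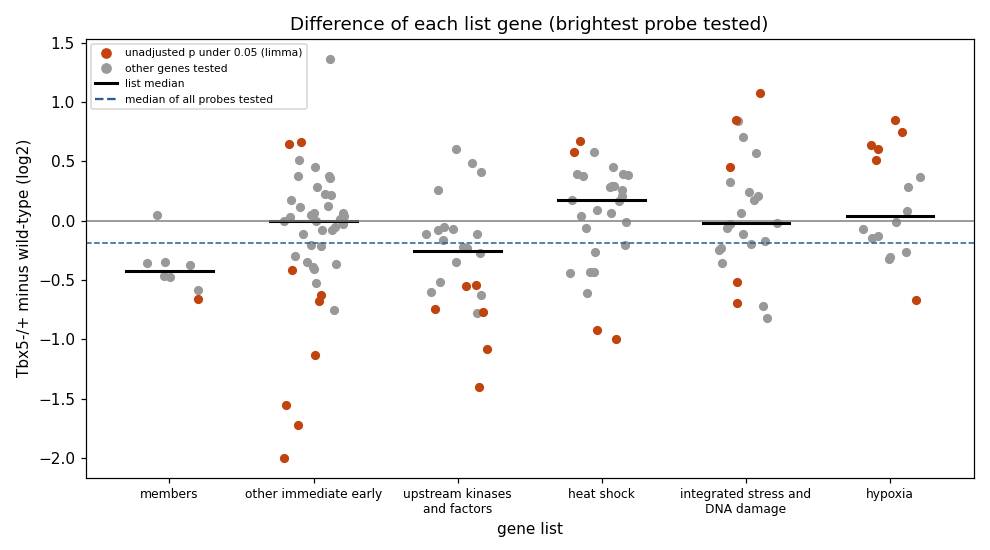
Difference between Tbx5-/+ and wild-type (log2, vertical axis) of each gene tested in the member list and the 5 further lists (horizontal axis), with black bars for list medians and a dashed line for the median of all probes tested. Klf4 at -1.997 is the lowest point, and orange points have an unadjusted p under 0.05 by limma.

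The kinases and factors that switch immediate early genes on had a median difference of -0.25 over 24 genes tested of 26. Of these, 6 were lower and 0 higher at an unadjusted p under 0.05, and with centred arrays 2 were lower and 2 higher. Map2k3, a kinase that activates p38, differed by -1.08 (limma adjusted p = 0.157, and 0.0354 with the block) and Mapk9, a Jun kinase, by -0.77 (limma adjusted p = 0.157, and 0.0448 with the block), with -0.38 and -0.12 at its other probes. Creb1, the factor that binds the cAMP response element, differed by -0.55 at its brightest probe (limma adjusted p = 0.194) and by 0.15 and 0.32 at its other probes.

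Heat shock genes had a median difference of 0.17 over 28 genes tested of 29, with 2 lower and 2 higher at an unadjusted p under 0.05, and 2 lower and 12 higher with centred arrays. These values depend on the choice of the brightest probe. Another probe was far lower for Hsp90b1 (0.39 at the brightest, -1.71 at the other), Hsp90ab1 (0.18 and -0.93) and Hspa13 (0.40 and -1.66). For Dnajb4 (0.09 and 0.18) and Cryab (0.29 and 0.37) the other probe was higher. Hsf2, a heat shock factor, differed by -0.93 at its brightest probe and -1.12 at the other (limma adjusted p = 0.128, and 0.0484 with the block), and the small chaperone Hspb8 by -0.99 (limma adjusted p = 0.144, and 0.0468 with the block), both without overlap. Hspa14, a ribosome-associated Hsp70, differed by 0.67 (limma adjusted p = 0.192), and Hspe1, the mitochondrial co-chaperonin, named after its value was seen, by 0.58.

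Genes of the integrated stress, unfolded protein and DNA damage responses had a median of -0.02 over 24 tested of 25, with 2 lower and 3 higher, and 0 lower and 8 higher with centred arrays. Pmaip1, a proapoptotic p53 target, measured 8.29, 9.42, 9.58 and 9.04 in Tbx5-/+ and 8.29, 8.20, 8.04 and 7.51 in wild-type, overlapping through Tbx5-/+ 1. Its difference was 1.07 (SE 0.31; limma adjusted p = 0.135, and 0.0487 with the block). Ddit4, an inhibitor of mTOR induced by hypoxia and stress, differed by 0.85 (limma adjusted p = 0.162) and Nqo1, a quinone reductase, by -0.52 (limma adjusted p = 0.186). Bbc3 (0.45) and Cdkn1a (-0.69) are named after their values were seen.

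Hypoxia response genes had a median of 0.04 over 16 tested of 17, with 1 lower and 5 higher at an unadjusted p under 0.05, beside the 18.5% and 3.38% of all probes, and 0 lower and 5 higher with centred arrays. Ldha, lactate dehydrogenase, measured 16.58, 17.37, 17.61 and 17.45 in Tbx5-/+ and 16.53, 16.43, 16.79 and 16.70 in wild-type, a difference of 0.64 (SE 0.25; limma adjusted p = 0.202), while its other probe differed by -0.04. Ankrd37 differed by 0.75 (limma adjusted p = 0.208). Ddit4 stands in this list too, and Pgk1 (0.51), Slc2a1 (0.60) and P4ha1 (-0.67) are named after their values were seen.

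Cell type markers were read from lists for the tissue and its neighbours. All 14 pSHF and splanchnic mesoderm markers were tested, and 7 were lower and 0 higher at an unadjusted p under 0.05, beside 18.5% and 3.38% of all probes. Tbx5, the mutated gene itself, is among the 7. Of the 14, 9 were well above background on all 8 arrays. The markers summed to between 37724 and 173270 in Tbx5-/+ and between 77349 and 111153 in wild-type (linear VSN units), and these ranges overlapped. With centred arrays 6 were lower and 1 higher. None passed an adjusted p of 0.05 by limma in the main fit. With the embryo number as a block 7 passed, where 11.1% of all probes passed. Without Tbx5-/+ 1 8 passed in either direction, where 19.2% of all probes passed. Endothelial markers (12 tested of 12) were summed to between 38931 and 46877 in Tbx5-/+ and between 47582 and 60982 in wild-type (linear VSN units), with 5 lower and 0 higher, and 3 lower and 0 higher with centred arrays. Their part in the values above was not tested. Foregut endoderm markers (12 tested of 12) had a median difference of -0.40, with 10 below 0 and 1 lower at an unadjusted p under 0.05, and summed to between 103796 and 130626 in Tbx5-/+ and between 87049 and 195112 in wild-type. Primitive erythrocyte markers (11 tested of 12) had a median of -0.04 and summed to between 113038 and 772956 in Tbx5-/+ and between 114578 and 503111 in wild-type. Cardiomyocyte markers (15 tested of 16) were bright on all arrays although the heart was cut away, and summed to between 321089 and 743877 in Tbx5-/+ and between 398265 and 622500 in wild-type. Macrophage markers were near background, with 1 of 8 tested, and 6 of 12 neural tube markers were tested, with Sox1 and Pou3f2 not above background on any array.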

How the data were processed

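RNA of 8 pools was hybridized as Cy3-labelled cRNA to single-colour Agilent arrays. Per the file headers, the deposited scanner files hold intensity values (mean signal, local background) from Agilent Feature Extraction 10.5.1.1, and a deposited table gives log2 values, which the authors made by background correction and variance stabilization (VSN). Here the local background median was subtracted, 1115 outlier spots were left out, repeated spots were averaged and VSN was programmed in R 4.3.3. Pearson's r with the deposited values was at least 0.999929 over 22405 probes, which are not independent. Probes well above background on all 4 arrays of a group (20028, 48.6%) were compared with limma 3.58.1 (lmFit, eBayes, two-sided, no covariate), in place of the authors' samr, which was not installed. Benjamini-Hochberg adjustment ran over all of them, with a threshold of 0.05. Exact permutation tests were two-sided over 70 assignments. Precision is limited by the number of arrays. In a simulation (20021 probes, 200 of them changed), limma called 0 when the change was 1 (log2) and 167 when it was 2.

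Embryo numbers were taken as pairs only in the alternative with the embryo number as a block. The main fit and the exact permutation tests ignored them. Deviations from group means of same-numbered samples correlated at 0.438, 0.400, 0.593 and 0.137. The members and lists were chosen with earlier results of these data known. Every member probe was named. From each further list the 3 genes with the smallest p were named, since none passed in the main fit. Tbx5 and the 5 genes most like the members were named too. Gene names were matched to RefSeq, used for names only, for 91.9% of probes tested. Alternatives were other scalings, filters, weights, blocks and left-out samples.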

Additional observations from a re-analysis of the deposited data

Results flagged for a closer look

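In 30 groups of 4 values (15 member probes in both groups), 2 held a value whose gap to its neighbour, as a share of the group's range, was above Dixon's 95% critical value. Chance alone gives about 1 in 20 groups. For Fos in wild-type the share was 0.872, with wild-type 6 at 6.07 and the nearest at 5.90, all near background. For Junb A_51_P159194 in wild-type the share was 0.830, with wild-type 6 at 11.83 and the nearest at 12.06.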

How the results depend on the processing

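The number of member genes called was 0 in every alternative except array weights (3) and leaving out 1 array (0 to 1; 1 without Tbx5-/+ 1). Member probes with an unadjusted p under 0.05 numbered 1, 0 under 75th percentile scaling, quantile normalization, median centring and the methods' filter, 2 with the replicate block, 5 with array weights, and 0 to 5 with 1 array left out (0 without wild-type 7, 5 without Tbx5-/+ 1). The methods' filter kept 4 member probes, and Dusp1 was not among them, so its 0 says nothing of Dusp1. The median difference of -0.42 was -0.12 with 75th percentile scaling, -0.10 with median centring and -0.65 to -0.20 with 1 array left out. The median of all probes moved with the scaling, from -0.19 to 0.10 with the 75th percentile, -0.01 with quantile normalization and 0.13 with centring. The members' median relative to it was -0.23 by VSN, -0.22 by the percentile, -0.17 by quantile normalization and -0.23 by centring. That relative median was 0.05 with the methods' filter (4 member probes), 0.02 with the 3′ to 5′ gap as a covariate and -0.04 without Tbx5-/+ 6. In the other direction, it was -0.49 without Tbx5-/+ 1 and -0.46 with no filter on dim probes. All probes at an unadjusted p under 0.05 split as 3709 lower and 676 higher by VSN, 1725 and 3118 by the percentile, 1878 and 1912 by quantile normalization and 1329 and 3253 by centring. Directions turned for Btg2 A_52_P925197 with the percentile (0.0600), quantile normalization (0.0663), centring (0.237) and without Tbx5-/+ 5 (0.0150), wild-type 5 (0.0594) or wild-type 7 (0.00802), in a range of -0.213 to 0.0594 with 1 array left out, and for Egr1 without Tbx5-/+ 7 (-0.0502), in a range of -0.0502 to 0.182. With the 3′ to 5′ gap as a covariate, chosen after seeing the data, they turned for Junb A_51_P159201 (0.0168), Egr1 (-0.159), Ier2 (0.0660), Atf3 (0.357) and Btg2 A_52_P31543 (0.0554). The cause was not tested. The block changed no call of a member gene. Low signal limits Fos, Fosb and Hspa1b.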
